A study of Homo sapiens with 6 samples.

Results

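Genes of the mitochondrial protein import machinery and of the SLC25 family of mitochondrial carriers were followed in long-read cDNA counts from Calu-6 cells. The members were all annotated genes whose symbol began with TOMM, TIMM or SLC25A followed by a digit, with hyphenated symbols and pseudogene symbols left out. This rule used names alone and found 47 gene records with 46 symbols, out of 10072 gene records in the table. They comprised 6 genes named for the outer membrane translocase (TOMM, among them the cytosolic TOMM34), 14 inner membrane and intermembrane space genes (TIMM) and 27 records of carriers (SLC25). Together they held 24027 counts, of which TOMM genes had 11022, TIMM genes 5757 and carriers 7248.

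Calu-6 is an established human lung cancer cell line that expresses telomerase. The study asked what follows when the Delta 2-4 splice variant of TERT, the catalytic subunit of telomerase, is targeted. Cells had received 10 nM of a non-targeting siRNA (siControl, 3 libraries) or of an siRNA against the junction that joins exons 1 and 5 of that variant (siDelta2-4, 3 libraries) for 48 h. The labels called the cells WT. The column names and the methods of the study describe them instead as a stably selected population carrying an empty Flag-V5 lentiviral vector, and this difference could not be settled. The text of the study calls the libraries of a group biological replicates, but neither it nor the labels say whether they came from separate cultures, and the p-values measure the spread between these libraries. Libraries are named here by where their total ranks in their group, and values of a group are listed from the highest-total to the lowest-total library.

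Totals ran from 1037468 to 1106413 counts in siControl and from 1070009 to 1309241 in siDelta2-4. The keratin genes KRT8 (114 to 171 counts a library) and KRT18 (162 to 231) and the mesenchymal gene VIM (130 to 206) were counted in every library. Of the other epithelial markers searched for, KRT7 had 3 to 11 counts, EPCAM 1 to 3 and KRT19 0 or 1, and CDH1 had no record. Of the other mesenchymal markers searched for, FN1 had 0 or 1 counts and CDH2 had no record. The 6 markers of lung epithelium searched for had no record either. TERT had 0 rows in the table, so the knockdown was not analysed here. The libraries differed in their balance of short and long transcripts: across 3888 genes tested, the log2 fold change correlated with transcript length (Spearman rho = 0.326, a description across genes that share the same 6 libraries). Over the 23 members tested this rho was 0.157. The deviation of single libraries from the mean followed length with a rho of -0.318 and -0.326 in the highest-total and middle-total siControl libraries, and of 0.137 to 0.362 in siDelta2-4. The lowest-total siControl library stood apart from its group, at 0.123, and it also lay with siDelta2-4 in the levels of several members given below. Every transcript model in the table had at least 1 count in siDelta2-4, while 4526 of 21472 models had none in siControl, so genes near the detection limit were listed only where siDelta2-4 reads had found them.

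Most mitochondrial proteins are made in the cytosol and enter through the TOM complex, in which TOMM20 and TOMM22 act as receptors and the small proteins TOMM5, TOMM6 and TOMM7 sit around the channel. Small TIM proteins then chaperone hydrophobic proteins across the intermembrane space, TIMM23 and TIMM17 form the route for proteins with a presequence, and TIMM22 inserts carriers into the inner membrane. The SLC25 carriers are the main clients of that last route: they exchange nucleotides, phosphate, amino acids and other metabolites across the inner membrane, and the ADP/ATP carriers export the ATP that oxidative phosphorylation makes. In bulk samples such as these, fewer cells of a kind and less RNA per cell cannot be told apart.

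The members as a group were called as often as the other genes of the table. Of 47 records, 23 passed the filter on low counts, and edgeR's quasi-likelihood test called 3 of them at an adjusted p under 0.1, which was 13% of those tested, against a background of 13% (504 of 3888 genes). The gene called higher in siDelta2-4 was TOMM22 (1 of 23 members, background 7%), and those called lower were TOMM5 and TIMM13 (2 of 23, background 5.97%). By class, 2 of 6 TOMM genes, 1 of 11 TIMM genes and 0 of 6 carrier records were called, and the DESeq2 Wald test also called no carrier. At an unadjusted p under 0.05 in the same test, 6 of 23 members stood against 23.1% of all genes tested, and 1 of these 6 was a carrier. The median log2 fold change was 0.02 for TOMM, -0.05 for TIMM and 0.10 for SLC25 genes, beside 0.03 over all genes tested. The SLC25 median takes the 2 records of SLC25A6 as separate members. With 1 library left out, these medians ran from -0.06 to 0.04 for TOMM, from -0.10 to -0.06 for TIMM and from 0.01 to 0.18 for SLC25 genes.

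**Figure D1:**
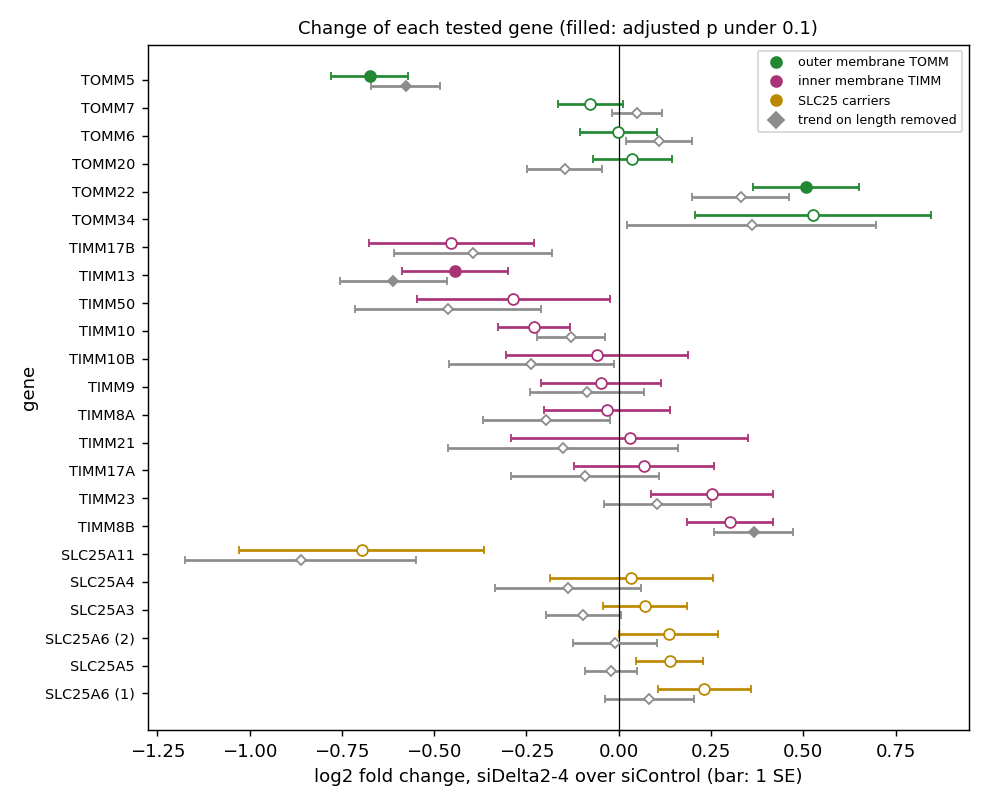
Log2 fold change of siDelta2-4 over siControl for each of the 23 tested records, with 1 SE, in the gene test (coloured circles) and after a trend on transcript length had been removed from each library (grey diamonds); filled symbols have an adjusted p under 0.1. TOMM5 and TIMM13 lie left of 0 and TOMM22 right of 0; SLC25A6 (1) is ENSG00000292334.1 and SLC25A6 (2) is ENSG00000169100.14, 2 records with the same sequence.

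The summed level of each class is a description, dominated by its most counted genes. TOMM genes together stood at 1710 ± 165 CPM (counts scaled to a common library size by TMM, mean ± SD, n = 3) in siControl and 1585 ± 29.5 in siDelta2-4. TIMM genes summed to 885 ± 40.4 and 833 ± 16.6 CPM, and carriers to 1029 ± 122 and 1123 ± 21.6 CPM. The groups overlapped for TOMM genes (1554 to 1882 in siControl, 1567 to 1619 in siDelta2-4), for TIMM genes (841 to 920 and 816 to 849) and for carriers (946 to 1169 and 1103 to 1146). For the carriers it was the lowest-total siControl library that stood highest of all 6, at 1169 CPM, while the other siControl libraries were at 972 and 946. All members together made up 0.337% to 0.369% of the counts of a library.

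Levels between genes are compared here per kilobase of the counted transcript models. On that scale TOMM7 was highest, with a mean over the 6 libraries of 1670 CPM per kb, followed by TOMM6 at 605, TIMM10 at 460, SLC25A5 at 444 and TOMM5 at 387. The order below TOMM6 differed between groups: TIMM10 was at 497 CPM per kb in siControl and 424 in siDelta2-4, TOMM5 at 476 and 298, and SLC25A5 at 423 and 466. On the same scale TOMM20 was at 58.5, TIMM23 at 58.0 and TOMM22 at 41.4 CPM per kb. At the low end of the tested members on this scale were TIMM21 at 4.81 and SLC25A4, with models of 4415 bases, at 6.41 CPM per kb. Not divided by length, SLC25A4 was at 28.3 CPM, above TIMM21 at 14.7 and SLC25A11 at 11.6. A long read counts 1 cDNA whatever its length, so division by length lowers genes with long models, such as TOMM20 with 3281 bases. Without it the means were 730 CPM for TOMM7, 579 for SLC25A5, 351 for TOMM6, 304 for TIMM10, 275 for TOMM5 and 192 for TOMM20. TOMM7 was highest on both scales, and SLC25A5 ranked below TOMM6 and TIMM10 per kb but above them without it.

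**Figure D2:**
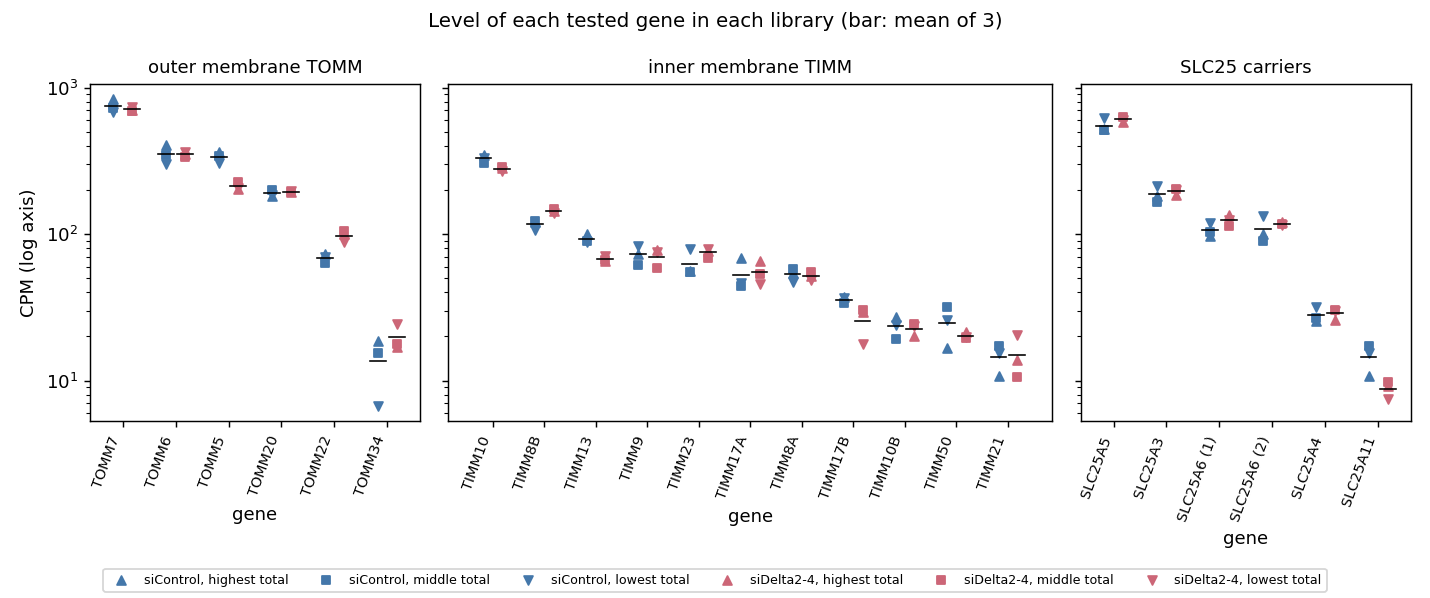
CPM (log axis) of every tested record in each of the 6 libraries, by class; triangles pointing up, squares and triangles pointing down are the libraries with the highest, middle and lowest total in siControl (blue) and siDelta2-4 (red), and bars are means of 3. TOMM5 and TIMM13 have all 3 siDelta2-4 points below the siControl points and TOMM22 has them above, while most other members overlap.

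TOMM5, a small subunit of the TOM complex, fell and had the smallest adjusted p of the 23 tested members. Its gene lies at chr9:37582646-37592604 on the minus strand (GRCh38), and its coding sequence is short, which is why it can be shown whole: 156 bases for 51 codons and the stop, read 5′ to 3′ on the coding strand from TOMM5-201 in Gencode 44, with no capitals since no part is singled out.
TOMM5: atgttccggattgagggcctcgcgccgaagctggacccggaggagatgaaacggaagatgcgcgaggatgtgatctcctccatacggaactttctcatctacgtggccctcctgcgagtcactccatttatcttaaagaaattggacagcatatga

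TOMM5 was counted 374, 358 and 319 times in siControl, or 365, 343 and 306 as CPM. In siDelta2-4 it was counted 264, 278 and 220 times, or 203, 226 and 206 as CPM. Every siDelta2-4 library lay below every siControl library. Its level was 338 ± 29.9 CPM in siControl and 211 ± 12.6 in siDelta2-4 (SD, n = 3), 1.6-fold higher in siControl, and the log2 fold change was -0.68 ± 0.10 (SE) with an adjusted p of 0.000137 in edgeR's quasi-likelihood test. The call held under all 14 alternatives run for it. With the trend on transcript length removed, the fall was smaller (-0.58 ± 0.09, adjusted p = 0.0011, background of that fit 12.1%). The models counted for TOMM5 averaged 709 bases, weighted by count, so the gene sits on the short side, where genes tended to be lower in siDelta2-4. The part of the length trend in the fall that remained was not tested.

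TOMM22, the central receptor of the TOM complex (chr22:38681957-38685421, plus strand), moved the other way. Its counts were 75, 66 and 73 in siControl and 130, 129 and 94 in siDelta2-4, again from the highest to the lowest total. As CPM these were 73.1, 63.3 and 69.9 against 99.8, 105 and 88.0, so the groups did not overlap and the lowest-total siDelta2-4 library stood nearest to siControl. The level rose from 68.8 ± 5.01 to 97.5 ± 8.62 CPM (SD, n = 3), 1.42-fold, and its log2 fold change was 0.51 ± 0.14 at an adjusted p of 0.0280 in edgeR's quasi-likelihood test. TOMM22 was called under 10 of 14 alternatives. Its models averaged 2009 bases, and with the length trend removed the log2 fold change was 0.33 ± 0.13 (adjusted p = 0.137), which ended the call. The call was also lost with the DESeq2 Wald test (0.45) and without the siControl or the siDelta2-4 library of middle total (0.45 in each).

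The remaining TOMM genes did not pass the test. TOMM7, which with TOMM5 and TOMM6 belongs to the small subunits, was the most counted member, with 858, 759 and 715 reads in siControl against 915, 852 and 789 in siDelta2-4. As CPM these were 837, 728 and 685 against 702, 692 and 739, which overlap, and the log2 fold change was -0.08 ± 0.09 (95% interval -0.25 to 0.10). TOMM6 was counted 416, 361 and 314 times in siControl against 459, 412 and 390 times in siDelta2-4, or 406, 346 and 301 against 352, 335 and 365 CPM. Its 3 siDelta2-4 libraries lay inside the siControl range, and the 95% interval of its log2 fold change ran from -0.21 to 0.20. Of the 3 small subunits, TOMM5 alone was called, and the intervals of the other two did not reach the size of its fall. TOMM20, the receptor for presequences, stood at 189 ± 8.70 and 194 ± 1.88 CPM, with an interval from -0.17 to 0.25. TOMM34, a cytosolic partner of HSP70 and HSP90, was scarce (7 to 26 counts a library). Its adjusted p was 0.336 at a log2 fold change of 0.53 ± 0.32 in the quasi-likelihood test. The size rested on the lowest-total siControl library, which had 6.7 CPM beside 18.5 and 15.3 in the others of its group, and was 0.18 without it and 0.80 without the highest-total siControl library.

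The small TIM chaperones share a hallmark that the name rule did not use: 2 pairs of cysteines, each with 3 residues between, which form the disulfides that hold the folded protein. In frame, this reads as TGC or TGT, 3 codons, and again TGC or TGT. The stretch from the first to the last of these cysteine codons is shown for the 6 small TIM genes, 5′ to 3′ on the coding strand from Gencode 44 transcripts (GRCh38), because it is what makes them one family while the bases between differ; capitals mark the cysteine codons.
TIMM8A: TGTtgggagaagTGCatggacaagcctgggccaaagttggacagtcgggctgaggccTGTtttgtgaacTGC
TIMM8B: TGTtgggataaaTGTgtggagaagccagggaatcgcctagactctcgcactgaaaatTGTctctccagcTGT
TIMM9: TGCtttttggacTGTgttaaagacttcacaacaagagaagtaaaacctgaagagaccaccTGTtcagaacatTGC
TIMM10: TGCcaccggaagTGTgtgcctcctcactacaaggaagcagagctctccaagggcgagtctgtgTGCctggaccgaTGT
TIMM10B: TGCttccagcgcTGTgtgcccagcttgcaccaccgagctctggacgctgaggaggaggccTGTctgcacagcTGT
TIMM13: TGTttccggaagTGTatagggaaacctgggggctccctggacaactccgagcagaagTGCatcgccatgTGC

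In all 6 genes the coding sequence held exactly 4 cysteine codons, all of them in these pairs, and the pairs started 19 to 21 codons apart. Among 20046 canonical coding sequences of Gencode 44, 7.71% had at least 2 such pairs and 0.758% had them starting 19 to 21 codons apart, a window read from these genes themselves. Among the 849 coding sequences of at most 312 bases, the length of the longest of the 6, these shares were 6.12% and 1.88%. TIMM8A, TIMM8B and TIMM13 had the shortest distance and TIMM10 the longest. The search was made in frame and on the coding strand alone.

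TIMM13, which pairs with TIMM8 proteins in a chaperone complex (chr19:2425625-2427586, minus strand), was the called gene of this class. It was counted 102, 93 and 92 times in siControl against 86, 82 and 76 times in siDelta2-4, or 99.4, 89.2 and 88.1 against 66.0, 66.6 and 71.2 CPM. All siDelta2-4 libraries were lower than all siControl libraries. The level was 92.2 ± 6.25 CPM in siControl and 67.9 ± 2.82 in siDelta2-4 (SD, n = 3), and the log2 fold change was -0.44 ± 0.14 at an adjusted p of 0.0551 in edgeR's quasi-likelihood test. Over the alternatives the log2 fold change ran from -0.61 to -0.33, and the call held in 9 of 15. It was lost with library totals as the only scaling (-0.37), with a block on the column number (-0.44) and when any of 4 single libraries was left out, the highest or middle of either group (-0.41 to -0.47). With the length trend removed it was larger, at -0.61 ± 0.14 (adjusted p = 0.0148).

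No partner of TIMM13 passed the test. TIMM8B (chr11:112084800-112086798, minus strand) was counted 124, 127 and 112 times in siControl against 187, 183 and 148 times in siDelta2-4, or 121, 122 and 107 against 143, 149 and 139 CPM. Its siDelta2-4 libraries all lay above the siControl libraries, yet its adjusted p was 0.111 at a log2 fold change of 0.30 ± 0.12 in edgeR's quasi-likelihood test, just outside the threshold. It passed with library totals (0.37), with a minimum of 10 counts in every library (0.31) and with the length trend removed (0.37 ± 0.11, adjusted p = 0.0452). TIMM8A, the gene mutated in deafness-dystonia syndrome, was at 53.0 ± 5.47 and 51.8 ± 3.30 CPM, with an interval of the log2 fold change from -0.37 to 0.30.

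TIMM10 and TIMM9 build the other soluble chaperone complex, which escorts carriers. TIMM10 (chr11:57528464-57530803, minus strand) was counted 358, 321 and 343 times in siControl against 368, 355 and 287 times in siDelta2-4, or 349, 308 and 329 against 282, 288 and 269 CPM. The CPM of the groups did not overlap, with siDelta2-4 lower, but the adjusted p was 0.148 at a log2 fold change of -0.23 ± 0.10 in the quasi-likelihood test. It was called with the DESeq2 Wald test (-0.28), on known models alone (-0.26) and without the lowest-total siControl library (-0.25). Its models averaged 661 bases, and with the length trend removed the fall was smaller. The quasi-likelihood test then gave -0.13 ± 0.09 (adjusted p = 0.456). TIMM9 was at 72.6 ± 11 and 70.3 ± 10.3 CPM, with an interval from -0.37 to 0.27, and TIMM10B, a small TIM of the carrier translocase, at 23.5 ± 4.08 and 22.6 ± 2.33 CPM. TIMM10 is thus the member of this complex whose groups did not overlap, while the groups of TIMM9 did.

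Of the inner membrane translocases, none passed. TIMM23, the channel for presequence proteins, stood at 62.9 ± 13.5 and 75.1 ± 5.44 CPM, and the quasi-likelihood test gave 0.25 ± 0.16 on the log2 scale (adjusted p = 0.371). Its lowest-total siControl library, at 78.5 CPM, was among the siDelta2-4 values of 69.1 to 79.6, and without that library the change was 0.42 with an adjusted p of 0.0706. Of its paralogous partners, TIMM17A was at 52.8 ± 13.4 and 54.9 ± 9.74 CPM. TIMM17B lay between 33.6 and 37 CPM in siControl and between 17.8 and 30.1 in siDelta2-4, with no overlap but an adjusted p of 0.22 in the quasi-likelihood test (log2 fold change -0.45 ± 0.22). Its lowest value belonged to the lowest-total siDelta2-4 library, without which the log2 fold change was -0.27. TIMM50, the receptor that hands precursors to the channel, was at 24.7 ± 7.6 and 20.2 ± 1.10 CPM and TIMM21, which links TOM to the inner membrane, at 14.4 ± 3.36 and 15 ± 5.12 CPM. TIMM23 has a near copy, TIMM23B, with 6 counts in all, and reads of the pair could be divided between them.

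Over all members, the CPM of the 2 groups did not overlap for 7 of 23, or 30.4%, against 26% of all genes tested. These were TOMM22 and TIMM8B on the higher side, and TOMM5, TIMM13, TIMM10, TIMM17B and SLC25A11 on the lower side of siControl.

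**Figure D3:**
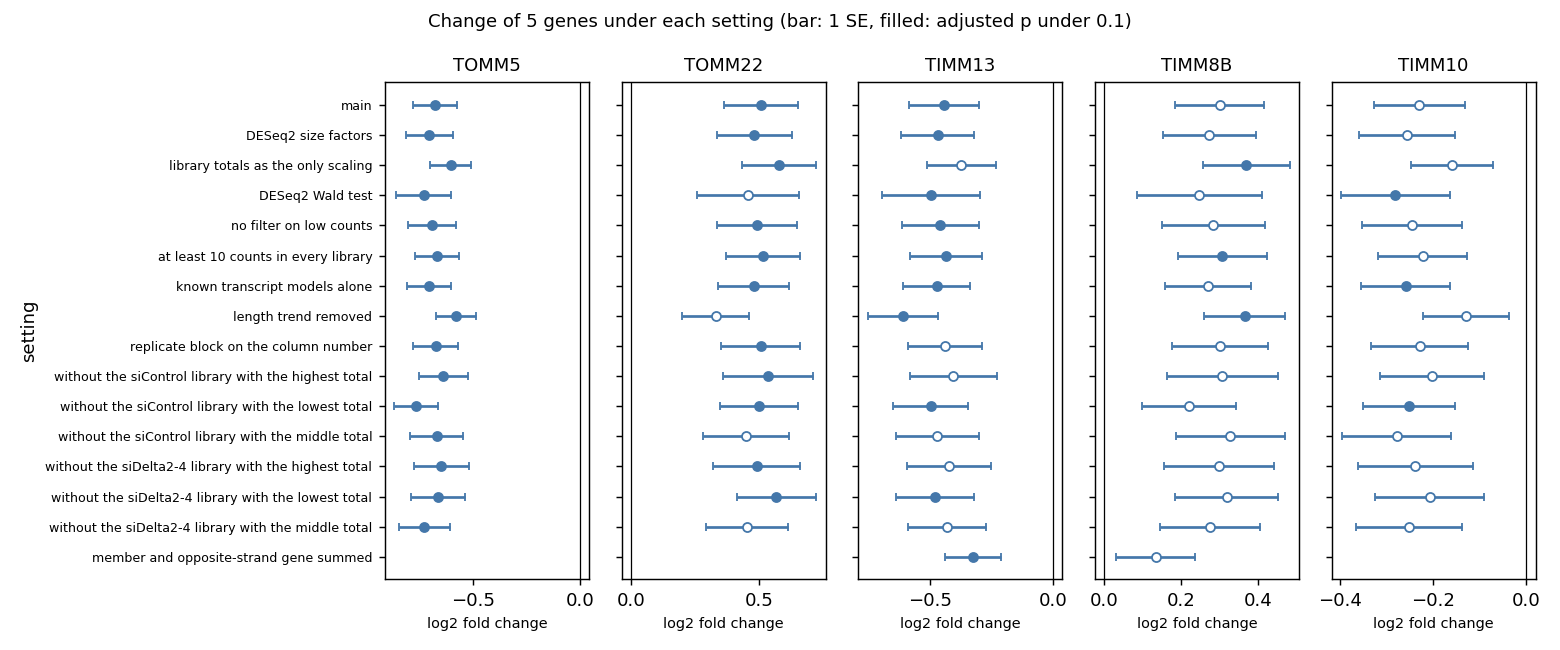
Log2 fold change with 1 SE of TOMM5, TOMM22, TIMM13, TIMM8B and TIMM10 under the gene test and each alternative (filled: adjusted p under 0.1). TOMM5 is filled in every row that has a value, TOMM22 and TIMM13 in most, TIMM8B and TIMM10 in 3 each, and no gene crosses 0; the lowest row exists only where a gene on the opposite strand was counted.

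Among carriers, no record was called. The ADP/ATP carriers SLC25A4, SLC25A5 and SLC25A6 are close paralogs, so the start of their coding sequences is shown to let the reader judge how well long reads can tell them apart: the first 120 coding bases, 5′ to 3′ on the coding strand from Gencode 44 transcripts (GRCh38), with capitals at the 34 positions where the 3 genes are not all alike.
SLC25A4: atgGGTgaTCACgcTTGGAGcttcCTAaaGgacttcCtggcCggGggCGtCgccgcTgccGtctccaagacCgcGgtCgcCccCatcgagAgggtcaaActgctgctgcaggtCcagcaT
SLC25A5: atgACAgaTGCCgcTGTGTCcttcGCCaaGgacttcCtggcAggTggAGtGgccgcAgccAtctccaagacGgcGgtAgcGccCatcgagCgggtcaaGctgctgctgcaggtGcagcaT
SLC25A6: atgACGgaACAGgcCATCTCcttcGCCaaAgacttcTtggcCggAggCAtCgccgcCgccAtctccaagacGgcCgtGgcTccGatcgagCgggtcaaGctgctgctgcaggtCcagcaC

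Each of the 3 coding sequences is 897 bases long. SLC25A4 shared 77.3% of its coding bases with SLC25A5 and 77.9% with SLC25A6, and SLC25A5 and SLC25A6 shared 78.8%. The longest run without a difference was 29 bases, between SLC25A5 and SLC25A6. The case of SLC25A6 itself is different: it lies in a pseudoautosomal region and is annotated with 2 gene records, 1 on X (chrX:1386152-1392113, minus strand) and 1 at the matching place on Y, whose counted transcripts of 1451 bases are identical. Their 761 and 781 counts cannot be assigned to a copy, and the level and change of SLC25A6 are given below as a sum. The class counts, the class medians and the figures of single records keep the 2 records apart, so this gene enters them as 2 members.

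SLC25A5 (chrX:119468422-119471396, plus strand), the ADP/ATP carrier common in dividing cells, was the most counted carrier. It was counted 533, 536 and 648 times in siControl against 765, 773 and 647 times in siDelta2-4, or 520, 514 and 621 against 587, 628 and 606 CPM. The lowest-total siControl library lay with the siDelta2-4 libraries. The log2 fold change was 0.14 ± 0.09, with an interval from -0.04 to 0.32 and an adjusted p of 0.38 in edgeR's quasi-likelihood test. Without that library it was 0.21 with an adjusted p of 0.0718, and with the length trend removed it was -0.02.

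SLC25A6, summed over both records, was counted 203, 201 and 262 times in siControl against 334, 284 and 258 times in siDelta2-4, or 198, 193 and 251 against 256, 231 and 242 CPM. Here too the lowest-total siControl library was among the siDelta2-4 values. The log2 fold change of the sum was 0.18 ± 0.11 (adjusted p = 0.339 in the quasi-likelihood test). SLC25A4, the isoform of heart and skeletal muscle, was at 27.9 ± 3.27 and 28.7 ± 2.27 CPM, with an interval of the log2 fold change from -0.40 to 0.47.

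SLC25A3, the phosphate carrier (chr12:98593591-98606379, plus strand), was counted 186, 172 and 223 times in siControl against 243, 248 and 214 times in siDelta2-4, or 181, 165 and 214 against 186, 202 and 200 CPM. The groups overlapped, and the log2 fold change was 0.07 ± 0.11 (95% interval -0.15 to 0.29). SLC25A11, the carrier that exchanges oxoglutarate and malate, had the largest absolute log2 fold change of the 23 tested members, at few counts: 11, 18 and 16 in siControl against 12, 12 and 8 in siDelta2-4. It lay between 10.7 and 17.3 CPM in siControl and between 7.49 and 9.75 in siDelta2-4, without overlap. Its adjusted p was 0.202 at a log2 fold change of -0.70 ± 0.33 in the quasi-likelihood test, and the 95% interval from -1.35 to -0.05 shows how little these counts fix its size. Where 10 counts were required in every library, SLC25A11 was not tested, as the lowest-total siDelta2-4 library had 8.

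The 24 records below the count filter could not be tested, and 21 of them were carriers. Each had at most 13 counts in any library, where 3 counts correspond to 2.30 to 2.92 CPM. The TIMM genes among them were TIMM22, the channel that inserts carriers, with 2 to 13 counts, TIMM23B with 0 to 3, and TIMM44, which anchors the import motor, with 0 or 1.

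Among the carriers with 10 or more counts in all were the following. SLC25A39, a glutathione carrier, had 4 to 11 counts a library, and SLC25A17, a peroxisomal carrier, 3 to 9. SLC25A53 had 2 to 6 counts and SLC25A26, the S-adenosylmethionine carrier, 0 to 7. The carnitine/acylcarnitine carrier SLC25A20 had 1 to 6 counts, the iron carrier SLC25A37 2 or 3, SLC25A38, needed for heme synthesis, 0 to 5 and the folate carrier SLC25A32 1 to 5. The counts of the groups overlapped in all 8 of these genes, and a change was not detectable at this depth.

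Lower still were SLC25A35 (0 to 4 counts), SLC25A40 and SLC25A14 (0 to 2 each), the NAD carrier SLC25A51 (0 to 2) and the ornithine carrier SLC25A15 (0 or 1). SLC25A36, SLC25A13, SLC25A24, SLC25A16, SLC25A27, SLC25A46 and SLC25A30 had 1 to 3 counts in all. These 7 and TIMM44 had no count in siControl, where 3 counts in a library would be 2.87 to 2.92 CPM, and no member lacked counts in siDelta2-4. The table lists models with a siDelta2-4 count, so a member at 0 in siControl alone could appear and the reverse could not. TOMM40, TOMM70 and SLC25A28 fit the name rule but had no record in the table, so they could not be analysed.

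**Figure D4:**
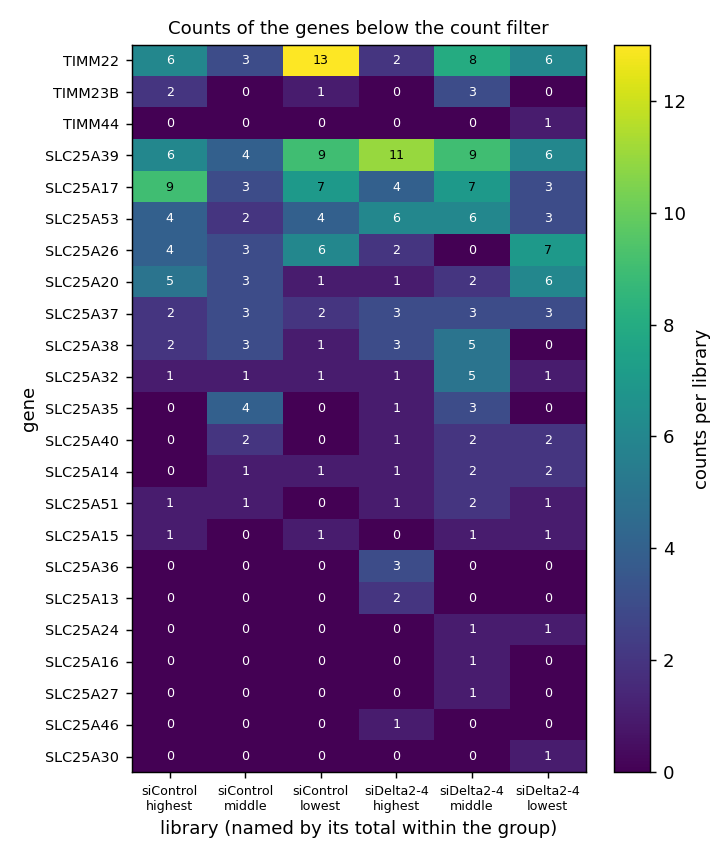
Counts per library of 23 of the 24 records below the count filter (rows) in the 6 libraries (columns, named by total within the group), with the colour scale in counts. TIMM22 reaches 13 counts in 1 siControl library, and the bottom rows hold counts of at most 3, all in siDelta2-4.

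The transcript models behind the members were mostly annotated ones. Of their counts, 94.9% were on known models, against 45.3% of all counts in the table, and 6 of the 47 records had any unannotated model. The test on transcript models called 2 of 32 models of members (background 6.91%), and they were the main models of genes already described. TOMM5-201, with 95.8% of the gene's counts, fell from 360, 343 and 304 to 253, 269 and 208 counts (log2 fold change -0.65 ± 0.10, adjusted p = 0.000303 in edgeR's quasi-likelihood test). TOMM22-201, with 98.2%, rose from 75, 66 and 71 to 126, 125 and 94 (0.52 ± 0.15, adjusted p = 0.0414). TIMM13-201 was the single model of its gene and so had the same counts. It was not called in this test (-0.41 ± 0.15, adjusted p = 0.111), and why the 2 tests differed was not tested.

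No change in the shares of models within a gene was called. Of 7 members with at least 2 tested models, 0 were called by the gene-level usage test of edgeR's diffSpliceDGE (background 0.618%), and 0 had an unadjusted p under 0.05 (background 9.63%). TOMM6-201 held 80.6% ± 0.581 of the gene's counts in siControl and 78.4% ± 1.17 in siDelta2-4 (SD, n = 3), and TIMM8B-201 held 87.5% ± 3.13 and 84.8% ± 0.328. An annotated SLC25A3 model of 5984 bases held 69.4% of the counts of its gene, and TIMM9 was counted mainly (81.2%) on an incomplete-match model of 1044 bases that lacks part of an annotated transcript.

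Several members overlap a gene on the opposite strand that the table counted nearly as often. The sources used here do not say that reads were counted by strand, and without strand a read with exons common to both could be counted for either partner. An opposite-strand gene in the table overlapped 7 tested members, and for 6 of them the partner had at least 0.5 of the member's count. TOMM6 had 2352 counts and USP49, on the other strand, 2222. The partners stood at 881 and 839 for TIMM8B and NKAPD1, at 531 and 563 for TIMM13 and TMPRSS9, and at 479 and 364 for TIMM9 and the long non-coding RNA ENSG00000258378. SLC25A5 had 3902 and its antisense gene SLC25A5-AS1 3496.

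For these 5 partners, 99.5% to 100% of the counts were on unannotated models, and the main one had the same number of exons as the main model of the member. Lengths were close for SLC25A5 and SLC25A5-AS1 (1307 and 1329 bases, 4 exons each), TOMM6 and USP49 (565 and 607) and TIMM9 and its partner (1044 each). They differed for TIMM8B and NKAPD1 (780 and 397) and for TIMM13 and TMPRSS9 (1664 and 1131). The antisense share of SLC25A5 was steady, at 46.5% to 48.6% of the sum in the 6 libraries. The partner share varied more for TOMM6 (45.9% to 51.2%), TIMM8B (45.2% to 52.3%), TIMM13 (48.9% to 57.4%) and TIMM9 (38.4% to 51.9%). TIMM17B with PQBP1 (205 and 117) and SLC25A11 with RNF167 (77 and 36) were different, as these partners were counted on known models. Their main models also differed in exons, 6 and 7 for TIMM17B and PQBP1 and 8 and 9 for SLC25A11 and RNF167. The sums of these pairs therefore join genes with different main models.

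Summing each pair kept the call of TIMM13. TIMM13 and TMPRSS9 together were at -0.33 ± 0.11 on the log2 scale (adjusted p = 0.0743 in edgeR's quasi-likelihood test), a smaller size than alone, and TMPRSS9 by itself was at -0.22 ± 0.15 (adjusted p = 0.398). TIMM8B and NKAPD1 together were at 0.13 ± 0.10 (adjusted p = 0.457), less than 0.30 for TIMM8B alone, since NKAPD1 was at -0.04 ± 0.12. TIMM17B and PQBP1 together were at -0.14 ± 0.19 (adjusted p = 0.711), against -0.45 for TIMM17B alone, with PQBP1 at 0.41 ± 0.31. The sums were -0.59 ± 0.28 for SLC25A11 with RNF167, -0.13 ± 0.12 for TIMM9 and -0.01 ± 0.09 for TOMM6 with their partners, and none of these was called. SLC25A5 and SLC25A5-AS1 together were at 0.12 ± 0.09 (adjusted p = 0.425). TOMM5 and TOMM22 overlapped no opposite-strand gene in the table.

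**Figure D5:**
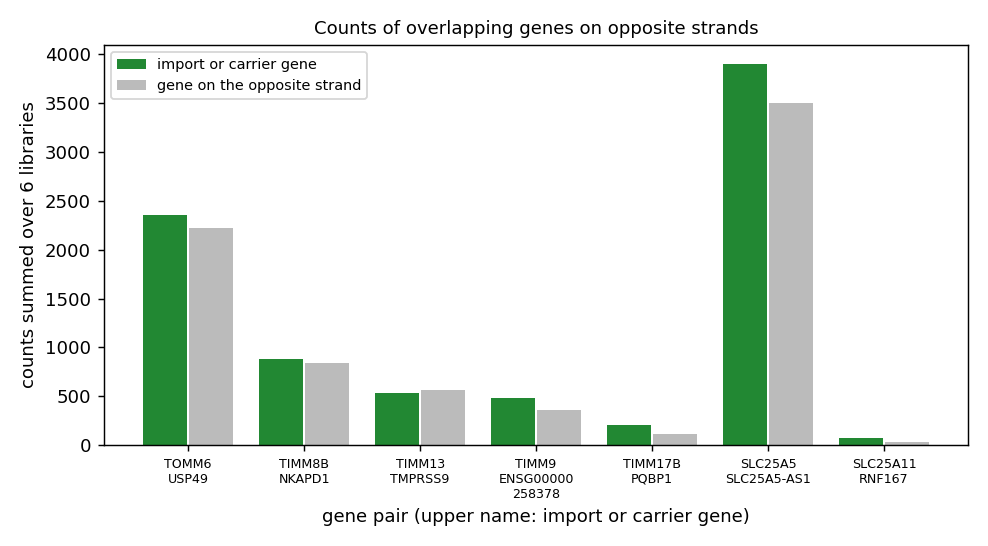
Counts summed over the 6 libraries for each tested member (green) and the gene it overlaps on the opposite strand (grey), on a linear axis from 0. In the pairs of TOMM6, TIMM8B, TIMM13 and SLC25A5 the 2 bars are nearly equal.

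Other genes of import and mitochondrial transport were taken from a list of 53 symbols outside the name rule. Of these, 41 were in the table and 26 were tested, and 3 were called (11.5%, background 13%), 2 higher and 1 lower. HSPD1, the chaperonin that folds imported proteins, was counted 15, 18 and 37 times in siControl against 46, 65 and 49 times in siDelta2-4. It rose by 0.98 ± 0.26 on the log2 scale (adjusted p = 0.0169 in the quasi-likelihood test), although the lowest-total siControl library, at 35.4 CPM, reached the lowest siDelta2-4 value of 35.3. DNAJA2 is a cytosolic co-chaperone of HSP70 that helps to keep precursors import-competent. It had 3, 4 and 9 against 26, 14 and 10 counts, a log2 fold change of 1.41 ± 0.42 (adjusted p = 0.0385 in that test). DNAJA2 passed the filter on low counts only through its siDelta2-4 libraries. The filter thus favoured a higher siDelta2-4 level, and the call cannot be read as evidence of a rise. With at least 10 counts required in every library, 2 of 22 partner genes were called (background 15.7%). ROMO1, a small inner membrane protein, fell from 229, 189 and 159 to 184, 166 and 142 counts, or from a range of 152 to 223 CPM to a range of 133 to 141 (log2 fold change -0.44 ± 0.13, adjusted p = 0.0281). With the length trend removed, these 3 changes were smaller and closer to the threshold. The quasi-likelihood test then gave -0.31 ± 0.11 for ROMO1 (adjusted p = 0.0954), 0.81 ± 0.24 for HSPD1 (0.0515) and 1.23 ± 0.43 for DNAJA2 (0.0897).

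HSPE1, the cofactor of that chaperonin, was not called. It had 833 to 938 counts in siControl and 912 to 1120 in siDelta2-4, with an interval of the log2 fold change from -0.23 to 0.11. The metabolite channels of the outer membrane VDAC1, VDAC2 and VDAC3 were at -0.06 ± 0.16, 0.17 ± 0.14 and 0.33 ± 0.20, and none was called. DNAJC19 and PAM16, parts of the import motor, were at -0.04 ± 0.12 and -0.28 ± 0.23, also without a call. With the DESeq2 Wald test, which left 9 of these genes with an adjusted p, 1 was called.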

How the data were processed

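Poly(A) RNA of 6 Calu-6 samples was measured as long cDNA reads. According to the submitters' processing notes and the study's methods, the authors used minimap2 2.14 to align reads to GRCh38.p14, sorted them with SAMtools 1.13, corrected them with TranscriptClean and assigned them to Gencode 44 transcripts or unannotated models with TALON. The deposited values are raw counts of reads per transcript model, not normalised. Unannotated models had at least 5 counts in every siDelta2-4 library, which favours reads of that group. Column names gave the siRNA, by which all 6 were assigned to a group, and 0 were left out.

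Counts were summed per gene identifier and the whole table was fitted in R 4.3.3 by edgeR 4.0.16 (TMM, filterByExpr, quasi-likelihood fit of 2 groups without covariates, two-sided, Benjamini-Hochberg over all genes tested, called at an adjusted p under 0.1). Models were tested alike, and usage with diffSpliceDGE. The SE is the log2 fold change over the root of the quasi-likelihood F. CPM used TMM-scaled totals, and a count cell carries counting error beside the spread over libraries. Lengths are those of the models, weighted by count. Loci, overlaps and sequences came from Gencode 44 on GRCh38, where all 47 records matched.

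Alternatives were DESeq2 1.42.0, its size factors, library totals, no filter, a minimum of 10 counts per library, a threshold of 0.05, known models alone, a loess trend on length (span 0.4) removed per library, a block on the column number, and each library left out in turn. Sums over opposite-strand partners and over both SLC25A6 records were chosen after seeing the data. The members and lists were chosen with earlier results of these data known. Values per library are given for called genes and models, and for the 3 genes of each class with the highest mean CPM; other members are named with values where the groups did not overlap or the unadjusted p was under 0.05, and partner genes where called. The values of 1 untested member are not reported here. Other genes named were chosen after their values were seen. The scripts were tested on simulated counts.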

Additional observations from a re-analysis of the deposited data

How the results depend on the processing

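Of the 23 tested members, TOMM5 was called under all 14 alternatives, TOMM22 under 10 of 14 and TIMM13 under 9 of 15. The count of called members was 3 in edgeR's gene test and 2 to 4 under the alternatives that kept every library. Leaving out 1 library gave 1 to 6 members (1 without the middle library of either group; 6 without the lowest-total siControl library, when 25.4% of all genes were called), 0 to 5 partner genes (0 without the middle-total siDelta2-4 library, 1 without the highest-total siControl library, 5 without the lowest-total one) and 1 to 5 transcript models (5 without the lowest-total siControl library, 2 without the lowest-total siDelta2-4 library, 1 without any of the others). The DESeq2 Wald test called 1 partner gene, and the model test with no filter called 1 model; the cause was not tested. Usage calls stayed at 0 throughout. The median of TIMM genes was 0.018 with library totals and -0.15 with the length trend removed, and that of carriers -0.059 with the trend removed. With 1 library left out, the median of TOMM genes ran from -0.062 (without the lowest-total siControl library) to 0.045, that of TIMM genes from -0.096 (without the lowest-total siDelta2-4 library) to -0.061, and that of carriers from 0.011 (without the middle-total siControl library) to 0.18 (without the lowest-total one). Library totals moved the median of all genes from 0.03 to 0.09.

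Small changes turned sign, all of genes that were not called. With the length trend removed they were TOMM7 (0.049), TOMM6 (0.11), TOMM20 (-0.15), TIMM17A (-0.091), TIMM21 (-0.15), SLC25A3 (-0.096), SLC25A4 (-0.14), SLC25A5 (-0.021) and the X record of SLC25A6 (-0.010). With library totals they were TOMM6 (0.071), TIMM8A (0.039), TIMM9 (0.018) and TIMM10B (0.011). On known models TIMM9 was at 0.017 and TIMM21 at -0.0018, with the DESeq2 Wald test TOMM20 was at -0.016, and TOMM6 was at 0.0060 with at least 10 counts and at 0.0082 with the block. With 1 library left out, ranges that crossed 0 were TOMM6 (-0.12 to 0.096), TOMM20 (-0.0065 to 0.071), TIMM8A (-0.13 to 0.028), TIMM9 (-0.16 to 0.071), TIMM10B (-0.19 to 0.043), TIMM17A (-0.081 to 0.28), TIMM21 (-0.24 to 0.23), SLC25A3 (-0.015 to 0.16) and SLC25A4 (-0.049 to 0.11).

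The number in the column names gave no sign of pairing: deviations of same-numbered libraries correlated at 0.039, -0.136 and -0.0843. With 3 libraries a group and a length trend that differed between libraries, this cannot exclude that same-numbered libraries were handled together. The fit with that number as a replicate block called 2 members, TOMM5 and TOMM22, and 299 of all genes (7.69%). Depth limited the 24 untested records, each with at most 13 counts in a library.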
